A study of Arabidopsis thaliana with 4 samples.

Results

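The regions described are the 5S rDNA-like tandem arrays of Arabidopsis thaliana, 13 of the 13159 nuclear 10 kb windows in the deposited methylation files. A window was taken when at least 50% of its C and G positions carried the same base 490 to 510 bp further on and under 50% did so at 176 to 180 bp, the length of the centromeric satellite. The rule used the base at each position and no methylation value. The data come from enzymatic methyl-seq of leaf DNA from 6-week-old plants of the accession Columbia (Col-0), in which a methylated cytosine is still read as C after conversion and an unmethylated one as T. There was 1 library for each of 4 genotypes: ccr4a ccr4b ddm1 rdr2 (called the quadruple mutant here), the double mutants ddm1 rdr2 and ccr4a ccr4b, and the wild type (WT). All 4 were otherwise labelled alike, and the labels give neither the mutant alleles nor how many plants made up a library. Of the 3 comparisons made, that of ddm1 rdr2 against WT addresses the methylation these arrays keep without DDM1 and RDR2. The other 2, ccr4a ccr4b against WT and the quadruple mutant against ddm1 rdr2, address the loss of CCR4A and CCR4B in either background.

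In Arabidopsis the genes of 5S ribosomal RNA lie in tandem arrays in the pericentromeres of chromosomes 3, 4 and 5, each repeat made of a short transcribed gene and a longer spacer. They are a long-known target of RNA-directed DNA methylation, in which small RNAs bring a DNA methyltransferase to cytosines in all contexts: CG, CHG and CHH, where H is A, C or T. RDR2 makes the double-stranded precursors of those small RNAs, DDM1 is a chromatin remodeller that heterochromatin needs to keep its methylation, and CCR4A and CCR4B are deadenylases, which trim the tails of RNA molecules.

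The 13 windows formed 3 arrays, all in pericentromeres. Chromosome 3 had 1 window at positions 15880001 to 15890000, which lay 150 kb from the span of the centromeric satellite. Chromosome 4 had 4 windows between 3230001 and 3310000, at 890 kb from the satellite, and chromosome 5 had 8 windows between 11250001 and 11350000, at 450 kb. The best repeat length was 506 bp on chromosome 3, 499 to 500 bp on chromosome 4 and 501 to 502 bp on chromosome 5. Coordinates are those of a reference called ColCEN, known only from the deposited files' names. Without an annotation of that reference, the label 5S rDNA could not be checked against an annotated gene, and the repeat is described by its own sequence. The arrays lie on the chromosomes where Arabidopsis 5S genes are known.

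Each repeat unit could be rebuilt from the strand and trinucleotide of every listed cytosine and aligned to a unit of 498 positions. There were 19 full units on chromosome 3, 78 on chromosome 4 and 152 on chromosome 5. The 78 include 3 that were alike with the consensus at under 90% of positions. An A or T whose letter is unknown counted as like any A or T. Of the consensus letters 74.9% to 78.7% were known, so all values of likeness are upper limits. The block of 120 positions chosen as the most alike among the 3 arrays was alike at 100% of positions between the chromosome 4 and 5 arrays and at 98.3% between either of them and chromosome 3. Over the rest of the unit the chromosome 4 and 5 arrays were alike at 96.8% of positions, and the chromosome 3 array was alike with each at 85.7%, a contrast that the choice of the block partly fixes. The conserved block had a GC content of 54.2% to 55.0%, and the rest of the unit of 34.4% to 38.9%. The consensus unit held 14 CG sites on chromosome 3, 23 on chromosome 4 and 22 on chromosome 5, of which 6, 7 and 7 lay in the block, counted over the aligned positions. The block is shown first because it is the part chosen for its likeness among the 3 arrays. The chromosome 3 line is 121 letters long, since it holds an inserted letter next to position 120 that belongs to no aligned position, and the last CG of that line, which the inserted letter forms, is not among the 6. Sequences run 5′ to 3′ along the unit, CG sites are in capitals, and n stands for an A or T whose letter the files do not give.
Block, chromosome 3 array (chr3:15882558-15882678, + strand): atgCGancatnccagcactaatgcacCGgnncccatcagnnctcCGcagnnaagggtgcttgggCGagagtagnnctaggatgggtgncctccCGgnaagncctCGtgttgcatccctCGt
Block, chromosome 4 array (chr4:3234488-3234607, + strand): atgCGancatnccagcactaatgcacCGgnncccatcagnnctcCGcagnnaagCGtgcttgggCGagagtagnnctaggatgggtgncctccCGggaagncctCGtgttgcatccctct
Block, chromosome 5 array (chr5:11271511-11271630, - strand): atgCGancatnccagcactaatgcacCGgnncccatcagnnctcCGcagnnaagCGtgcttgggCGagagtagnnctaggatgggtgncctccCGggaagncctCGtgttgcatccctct
The next stretch, unit positions 201 to 380, is shown because it holds neighbouring CG sites that kept very different levels in the ddm1 rdr2 library. The CG at position 205, the first in capitals in each line, was among the least methylated there, while those at 273, 305 and 315 were among the most. The chromosome 3 line has no CG at 273 or 305.
Spacer stretch, chromosome 3 array (chr3:15882767-15882946, + strand): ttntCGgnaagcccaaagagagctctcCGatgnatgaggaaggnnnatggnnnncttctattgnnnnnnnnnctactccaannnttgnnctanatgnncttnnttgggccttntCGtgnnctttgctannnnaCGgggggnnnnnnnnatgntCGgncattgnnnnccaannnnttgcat
Spacer stretch, chromosome 4 array (chr4:3234690-3234869, + strand): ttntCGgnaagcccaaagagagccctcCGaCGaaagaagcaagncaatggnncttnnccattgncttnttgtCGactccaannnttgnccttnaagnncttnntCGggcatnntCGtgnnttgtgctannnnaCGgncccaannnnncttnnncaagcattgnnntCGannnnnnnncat
Spacer stretch, chromosome 5 array (chr5:11271247-11271425, - strand): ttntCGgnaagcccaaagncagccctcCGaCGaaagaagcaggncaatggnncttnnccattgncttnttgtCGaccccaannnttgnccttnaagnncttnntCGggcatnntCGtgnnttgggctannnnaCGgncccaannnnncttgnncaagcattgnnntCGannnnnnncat

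Copies within an array were close to each other. The median unit was alike with its array's consensus at 98.99% of positions on chromosome 3, 99.8% on chromosome 4 and 99.6% on chromosome 5. On chromosome 4, 41 of 78 full units had an identical copy within the array, and on chromosome 5 58 of 152 did, the largest identical groups holding 7 and 16 units. On chromosome 3 none of the 19 units had one. Unknown letters were taken as equal here, so these counts of identical copies are upper limits. How reads that match several copies were placed is not given in the sources used here, so a value is best read as that of an array, not of one copy. Outside the arrays, recurrence at this length was 19.5% in the median window and at most 49.5%, and 45 windows lay between 30% and 50%.

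The members just inside the limit were chr5:11300001-11310000 at 50.6% and chr4:3230001-3240000 at 52.4%. The windows just outside were chr3:16420001-16430000 at 49.5% and chr3:15870001-15880000 at 48.3%. CHH methylation of the 2 windows inside was 4.07% and 4.21% in the quadruple mutant, 10.99% and 9.85% in ddm1 rdr2, 15.9% and 12.8% in ccr4a ccr4b, and 20.9% and 16.5% in WT. In the 2 windows outside it was 4.74% and 4.18% in the quadruple mutant, 11.1% and 9.69% in ddm1 rdr2, 13.7% and 11.3% in ccr4a ccr4b, and 18.4% and 16.1% in WT. The windows on both sides of the limit had levels of the same order.

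The nuclear totals were 785451909 calls in the quadruple mutant, 745511802 in ddm1 rdr2, 574097022 in ccr4a ccr4b and 774313581 in WT. In the chloroplast, which is unmethylated, 0.0737% to 0.11% of calls were read as methylated, over contexts and libraries. The arrays list 55210 cytosines, and the 38609 (69.9%) that reached 4 calls in each library were used for levels. Calls per listed array cytosine averaged 61.3 in the quadruple mutant, 71.4 in ddm1 rdr2, 79.5 in ccr4a ccr4b and 93.2 in WT. Against arm bins of like GC content, the arrays were covered 2.44 times as deeply in the quadruple mutant, 2.86 times in ddm1 rdr2, 4.21 times in ccr4a ccr4b and 3.85 times in WT. The rest of the pericentromere reached 1.19, 1.27, 2.01 and 1.63 times in the same order of libraries. Both libraries with ddm1 rdr2 were thus the shallower ones in either region, and copy number, read placement and library preparation cannot be told apart in these depths. Coverage within the arrays was uneven, and in WT the windows held between 20.2 and 301 calls per cytosine.

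**Figure D1:**
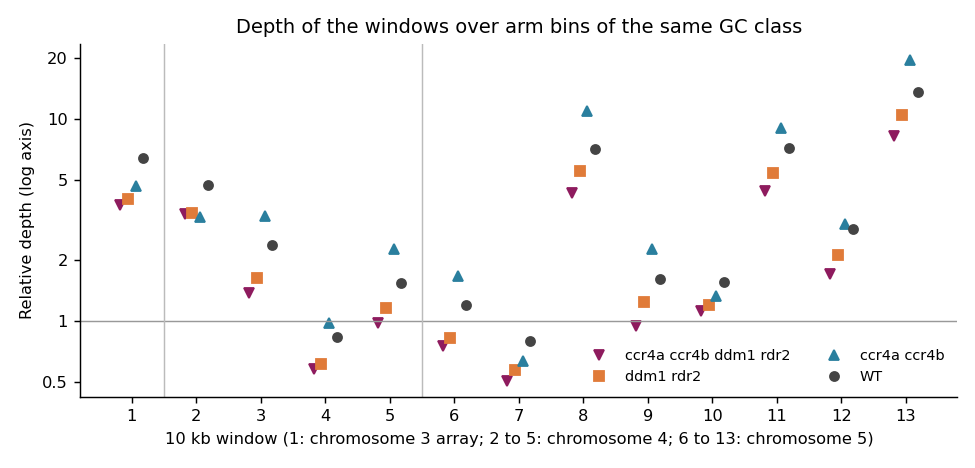
Relative depth (log axis) of the 13 windows in each library, as calls over those expected from arm bins of like GC content, with the line at 1 marking equal depth. Windows 8, 11 and 13 of the chromosome 5 array were the deepest of that array in all 4 libraries, reaching 13.6 in WT at window 13.

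CG methylation of the arrays was 10.1% in the quadruple mutant (Wilson 95% interval 10.1% to 10.2%), 16.2% in ddm1 rdr2 (16.1% to 16.3%), 79.7% in ccr4a ccr4b (79.6% to 79.8%) and 80.7% in WT (80.6% to 80.8%). CHG methylation was 4.40%, 11.5%, 37.6% and 38.0% in the libraries the quadruple mutant, ddm1 rdr2, ccr4a ccr4b and WT. CHH methylation was 4.29% in the quadruple mutant (4.26% to 4.32%), 11.3% in ddm1 rdr2 (11.2% to 11.3%), 15.5% in ccr4a ccr4b (15.4% to 15.5%) and 19.8% in WT (19.7% to 19.8%). In CG and CHG the largest step lay between the libraries with and without ddm1 rdr2, while CHH took 4 more evenly spaced levels. Since PCR copies of a molecule cannot be told from separate molecules here, these intervals cover counting error only. With 1 library per genotype no test between genotypes is possible, and plant-to-plant variation is not measured.

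WT arrays stood out from the rest of the pericentromere in CHH more than in CG or CHG. The rest of the pericentromere had 72.1% CG, 36.9% CHG and 10.9% CHH methylation in WT. Among its windows with enough cytosines, the median array window ranked high in CHH only: 17 of 1915 windows (0.888%) reached the array median of 19.98%, whereas 832 of 1693 (49.1%) reached it in CG and 841 of 1664 (50.5%) in CHG.

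The ddm1 rdr2 arrays had far less CG and CHG methylation than the WT arrays, and kept a larger share of the CHH level. For CG the difference was -64.5 points (Newcombe 95% interval -64.6 to -64.4), for CHG -26.5 points (-26.6 to -26.3) and for CHH -8.47 points (-8.53 to -8.41). As a share of the WT level, ddm1 rdr2 kept 20.1% in CG, 30.4% in CHG and 57.1% in CHH. The rest of the pericentromere kept 14.2%, 16.6% and 20.9% in the same contexts. In CHH the absolute difference was about the same in the arrays as in the rest of the pericentromere, where it was -8.63 points, while the level in ddm1 rdr2 was 11.3% in the arrays and 2.28% in the rest of the pericentromere. The centromeric satellite, the other tandem repeat, is not part of that rest. Its CHH level was 8.81% in ddm1 rdr2 and 9.49% in WT, so that it kept 92.8%, a larger share than the arrays, whereas in CG it kept 6.50% and in CHG 18.4%. Only 55 of 1915 other pericentromeric windows (2.87%) reached the array median of 11.07% in ddm1 rdr2. These others include windows of the repeat just under the recurrence limit, such as chr3:16420001-16430000 with 11.14%.

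All 3 arrays showed this. CHH methylation of the chromosome 3 array was 11.2% in ddm1 rdr2 and 19.99% in WT. It was 8.88% in ddm1 rdr2 and 16.1% in WT in the chromosome 4 array, and 11.9% in ddm1 rdr2 and 20.7% in WT in the chromosome 5 array. The shares kept were 56.1%, 55.2% and 57.5%. The flanks, other pericentromeric windows within 100 kb of each array, were lower in ddm1 rdr2. They kept 37.5% of the WT CHH level beside the chromosome 3 array, 19.4% beside the chromosome 4 array and 17.8% beside the chromosome 5 array. The flanks of the chromosome 3 array, nearest to the satellite, were the intermediate ones.

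Single 100 bp bins were compared between libraries with Fisher's exact test on the summed calls, and a bin counted as called below an adjusted p of 0.01 (Benjamini-Hochberg, over all nuclear bins) if its levels also lay 40 points apart in CG, 20 in CHG or 10 in CHH. A bin's values rest on the cytosines with at least 4 calls in both libraries compared, so the calls of one bin in one library can differ between comparisons. Between ddm1 rdr2 and WT 1015 of 1057 array bins were called in CG, all lower in ddm1 rdr2, where 25.3% of all nuclear bins were called, 24.6% as lower. In CHG 303 of 484 were called, all lower, against 16.5% of all nuclear bins, 16.3% lower. In CHH 381 of 1196 were called, 375 lower and 6 higher, against 9.56% of all nuclear bins, 8.84% lower and 0.72% higher. The share in CHH, 31.9%, was that of the rest of the pericentromere, also 31.9%. In CHG the arrays' share of 62.6% was near the 64.9% of the rest of the pericentromere. In CG the shares were 96.0% and 81.8%. The bin with the largest CG difference, chr4:3254301-3254400, was methylated at 4.17% of 24 ddm1 rdr2 calls and at 97.0% of 33 WT calls. For CHG it was chr4:3308601-3308700, with 0.901% of 333 ddm1 rdr2 calls and 63.1% of 320 WT calls. That bin lies in window 5, in a unit alike with the array consensus at only 61.8% of positions, so not in typical repeat sequence. The array bin with the largest CHH gain, chr4:3232301-3232400, was methylated at 25.7% of 482 ddm1 rdr2 calls and at 5.66% of 477 WT calls. The largest loss was at chr4:3237401-3237500, with 10.5% of 38 calls in ddm1 rdr2 and 60.5% of 43 calls in WT.

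The quadruple mutant had less array methylation than ddm1 rdr2 in every context. The difference of the quadruple mutant minus ddm1 rdr2 was -6.10 points for CG (-6.21 to -5.99), -7.13 points for CHG (-7.24 to -7.02) and -6.99 points for CHH (-7.04 to -6.95). Of the ddm1 rdr2 level 62.4% was left in CG, 38.2% in CHG and 38.0% in CHH. This comparison shares the ddm1 rdr2 library with the one before, so a chance deviation of that library enters both. In the rest of the pericentromere, outside the satellite span, CG differed by 0.156 points, CHG by -0.0510 points and CHH by -0.428 points. The lower level was not particular to the arrays, however. The satellite differed by -2.20 points in CG, -3.24 in CHG and -2.07 in CHH, with 55.0%, 57.9% and 76.5% of the ddm1 rdr2 level left. The other windows within the satellite span differed by -2.28, -2.86 and -1.45 points in the same contexts. The arrays' difference exceeded that of the pericentromere outside the satellite span by -6.26 points for CG (-6.36 to -6.15), -7.08 points for CHG (-7.19 to -6.96) and -6.57 points for CHH (-6.61 to -6.52), intervals that again hold counting error only.

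The lower methylation of the quadruple mutant was found in all 13 windows in each of the 3 contexts. Window by window, the CHH difference ran from -8.05 to -2.17 points with a median of -6.55, and 30 of 1915 other pericentromeric windows (1.57%) were at or below that median. In CG it ran from -8.00 to -1.70 points with a median of -6.52, which 27 of 1693 other windows (1.59%) reached. In CHG it ran from -8.60 to -2.42 points with a median of -7.03, which 55 of 1664 (3.31%) reached. The windows named above as just outside the recurrence limit count among these others, at -7.88 and -7.51 points in CHG. CHH levels of the windows lay between 1.77% and 5.02% in the quadruple mutant, with a median of 4.21%, and between 3.94% and 13.0% in ddm1 rdr2, with a median of 11.1%. Except for window 5, every ddm1 rdr2 window lay above every quadruple-mutant window in CHH.

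**Figure D2:**
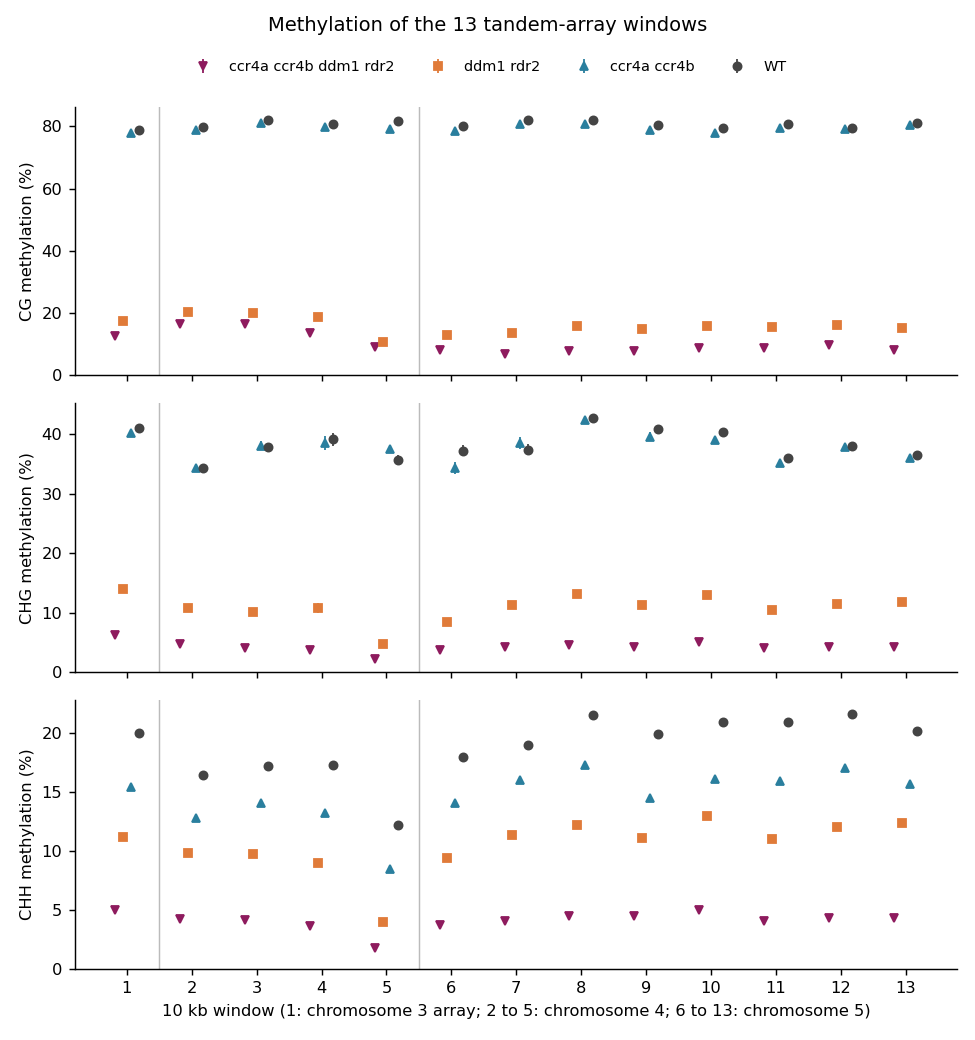
Methylation levels (%) of the 13 windows in CG, CHG and CHH, with 1 point per library and window and bars for the Wilson 95% interval, mostly smaller than the points; windows are numbered along the chromosomes. In CHH the order the quadruple mutant, ddm1 rdr2, ccr4a ccr4b, WT, lowest first, held in all 13 windows, with WT between 12.2% and 21.7%.

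Window 5, the last of chromosome 4 (chr4:3300001-3310000), was the lowest in CHH in all 4 libraries, with 1.77% in the quadruple mutant, 3.94% in ddm1 rdr2, 8.47% in ccr4a ccr4b and 12.2% in WT. It was also the window that contained units unlike the consensus, 3 of its 19 full units being alike at under 90% of positions. The 16 other units of that window had 3.31% CHH methylation in the quadruple mutant and 8.22% in ddm1 rdr2, against 15.4% in WT. The rest of the window had 0.349% in the quadruple mutant and 0.576% in ddm1 rdr2, against 9.31% in WT. In the same 10 kb, sequence of the repeat thus kept CHH methylation in ddm1 rdr2, and sequence unlike it kept little. That split was made after the window's values had been seen.

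The arrays differed in how much CG methylation the quadruple mutant lacked. In the chromosome 3 array CG methylation was 12.7% in the quadruple mutant and 17.6% in ddm1 rdr2. It was 15.2% in the quadruple mutant and 18.9% in ddm1 rdr2 in the chromosome 4 array, and 8.35% in the quadruple mutant and 15.4% in ddm1 rdr2 in the chromosome 5 array. The CHH differences were -6.19, -5.10 and -7.56 points in the arrays of chromosomes 3, 4 and 5. Beside the arrays the CHH differences were -2.74 points in the flanks of the chromosome 3 array, -0.171 points in those of chromosome 4 and -0.650 points in those of chromosome 5. The flanks start from lower CHH levels in ddm1 rdr2. As shares of that level, the quadruple mutant kept 44.8%, 42.5% and 36.4% in the arrays of chromosomes 3, 4 and 5. In their flanks it kept 46.2%, 91.1% and 63.4%. The flanks of the chromosome 3 array thus kept about the same share as that array.

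By single units, which share reads and are no replicates, CG was lower in the quadruple mutant than in ddm1 rdr2 in 217 of 228 units with enough cytosines. CHG was lower in 201 of 203 units and CHH in 238 of 241. In the bins, 188 of 1167 were called in CHH, all lower in the quadruple mutant, where 1.17% of all nuclear bins were called, 0.991% as lower. The arrays' share was 16.1%, against 2.59% in the rest of the pericentromere. None of 1017 array bins was called in CG, against 1.04% of all nuclear bins and 0.53% called lower. A difference of 40 points could hardly be reached there, since ddm1 rdr2 had 16.2% CG methylation, and by the adjusted p alone 238 array bins were lower and 1 was higher. In CHG 2 of 464 bins were called, both lower, against 0.685% of all nuclear bins and 0.409% called lower, and by the adjusted p alone 138 were lower and 0 higher. The median bin difference was -5.47 points for CG, -6.22 points for CHG and -6.43 points for CHH, and the pericentromere's median was 0 in each context.

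**Figure D3:**
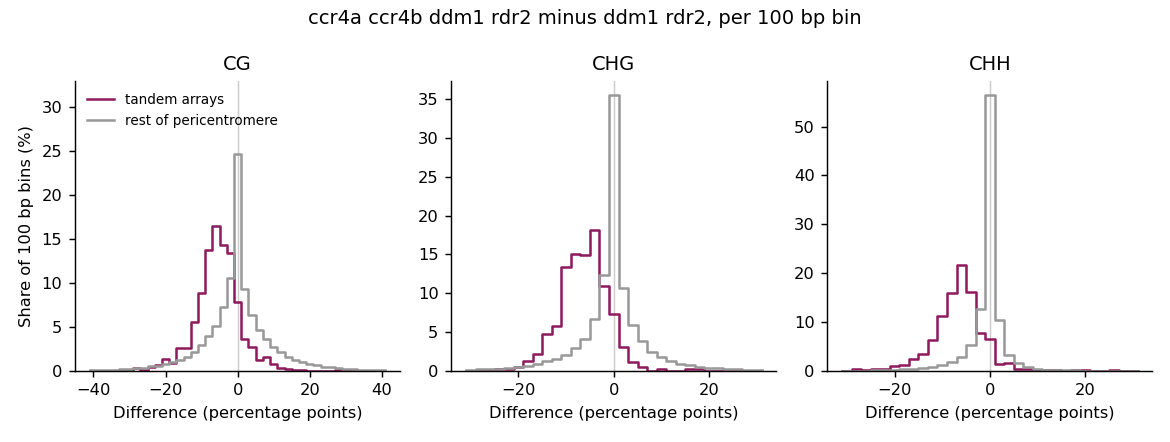
Distribution of the difference the quadruple mutant minus ddm1 rdr2 (percentage points) over 100 bp bins of the arrays and of the rest of the pericentromere, as a share of all tested bins of each; bins beyond the axes are not drawn. The array bins centre below 0, with a median of -6.43 points in CHH, while the pericentromeric bins centre on 0.

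The bin with the largest CHH difference of this comparison, chr5:11250101-11250200, had 0 of 26 calls methylated in the quadruple mutant, which allows a share of up to 11.5%, and 44.0% of 25 calls in ddm1 rdr2, with an adjusted p of 0.00254 in Fisher's exact test. Those are the bin's cytosines with enough calls in both libraries, and over all with enough calls in the quadruple mutant it had 1.19% of 84 calls methylated. The bin with the largest CHG difference, chr4:3255401-3255500, had 0 of 42 calls methylated in the quadruple mutant, which allows up to 7.14%, and 32.6% of 43 calls in ddm1 rdr2, with an adjusted p of 0.00162 in the same test. Both are thinly covered, and the interval of the CHH difference spans -62.9 to -22.4 points.

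The comparison of ccr4a ccr4b with WT shares its WT library with that of ddm1 rdr2. In the wild-type background the loss of CCR4A and CCR4B went with a smaller difference, mainly in CHH. The difference of ccr4a ccr4b minus WT was -4.30 points in CHH (-4.36 to -4.24), so that 78.2% of the WT level was left, close to the 79.0% left in the rest of the pericentromere. CHH was lower in ccr4a ccr4b in all 13 windows, by -5.47 to -2.98 points, and in 225 of 241 units. CG differed by -1.01 points (-1.12 to -0.896) and was lower in all 13 windows, by -2.54 to -0.380 points. CHG differed by -0.347 points (-0.530 to -0.163) and was lower in 9 of 13 windows, with the chromosome 4 array slightly higher in ccr4a ccr4b at 0.451 points, mainly through window 5 at 1.83 points. Leaving out the deeply covered cytosines changed that CHG value to -1.13 points, and windows with at least 70% recurrence gave -0.0691 points, so it is not stated as a change. In CG, 822 of 1693 other pericentromeric windows (48.6%) were at or below the array median of -1.08 points. Chromosome arms were higher in ccr4a ccr4b than in WT, by 4.71 points in CG and 3.42 in CHG. Arm depth rose from 3.82 calls per cytosine at 35% GC to 96.6 at 55% in ccr4a ccr4b. In WT it rose from 8.81 to 69.2.

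Of the array bins, 103 of 1186 were called in CHH between ccr4a ccr4b and WT, 96 lower and 7 higher, against 3.28% of all nuclear bins, 2.45% lower and 0.822% higher. The arrays' share of 8.68% was near the 7.88% of the rest of the pericentromere. In CG 2 of 1057 bins were called, both higher, against 2.2% of all nuclear bins, 1.46% lower and 0.733% higher. In CHG 1 of 493 was called, lower, against 1.69% of all nuclear bins and 0.793% called lower. The most different CHH bin was again chr4:3237401-3237500, with 7.04% of 71 calls in ccr4a ccr4b and 50.9% of 55 calls in WT. A gain was seen at chr5:11337301-11337400, with 53.0% of 151 calls in ccr4a ccr4b and 22.8% of 145 calls in WT. The CG bin with the largest difference, chr4:3259201-3259300, had 90.9% of 33 calls in ccr4a ccr4b and 46.2% of 91 calls in WT. The CHG bin, chr4:3271401-3271500, had 0 of 27 calls in ccr4a ccr4b, which allows a share of up to 11.1%, and 48.6% of 35 calls in WT.

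Both comparisons that differ by ccr4a ccr4b use separate libraries, and their array differences can be set side by side. In CHH the difference was -6.99 points in the ddm1 rdr2 background and -4.30 points in the wild-type background, so that the first exceeded the second by -2.70 points (-2.77 to -2.62). In the rest of the pericentromere the order in points was the opposite, with -0.428 in the ddm1 rdr2 background and -2.29 in the wild-type background. Those differences start from unlike CHH levels, 2.28% in ddm1 rdr2 and 10.9% in WT. In CG and CHG the array effects differed by -5.09 points (-5.25 to -4.93) and -6.78 points (-7.00 to -6.57). As shares, the quadruple mutant kept 38.0% of the ddm1 rdr2 CHH level in the arrays, and ccr4a ccr4b kept 78.2% of the WT level. In the rest of the pericentromere the shares were 81.2% and 79.0%, close to each other. The gap was not particular to the arrays. In the same order the shares were 58.6% and 76.6% in the other windows within the satellite span. They were 46.2% and 72.6% in the flanks of the chromosome 3 array, and 63.4% and 71.5% in those of chromosome 5. The flanks of chromosome 4 (91.1% and 73.6%) and the satellite (76.5% and 71.6%) had the opposite order. In CG the satellite kept 55.0% and 93.0%, and in CHG 57.9% and 99.3%.

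CHH sites are grouped by their trinucleotide, since CMT2, the methyltransferase that acts on heterochromatin with the help of DDM1, favours CAA and CTA sites, while RNA-directed methylation shows less preference. In the arrays CAA was 7.32% methylated in the quadruple mutant, 20.4% in ddm1 rdr2, 37.0% in ccr4a ccr4b and 45.3% in WT. CTA was 6.60% methylated in the quadruple mutant, 17.8% in ddm1 rdr2, 31.7% in ccr4a ccr4b and 39.2% in WT. At CCC the values were 2.50% in the quadruple mutant, 5.82% in ddm1 rdr2, 5.14% in ccr4a ccr4b and 6.08% in WT. The classes therefore lost unequal shares in ddm1 rdr2: CAA kept 44.9% and CTA 45.3% of WT, whereas CCT kept 84.3% and CCC 95.6%. CCT was 3.23% methylated in the quadruple mutant, 7.36% in ddm1 rdr2, 7.02% in ccr4a ccr4b and 8.73% in WT. The other 5 classes lay between 3.17% and 4.21% in the quadruple mutant, between 8.05% and 10.97% in ddm1 rdr2, between 9.35% and 15.05% in ccr4a ccr4b and between 12.2% and 19.7% in WT. They kept between 53.9% and 69.0%. In the rest of the pericentromere CAA kept 19.96%, CTA 20.5%, CCT 34.3% and CCC 41.1%.

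Between the quadruple mutant and ddm1 rdr2 the shares kept were much more even. Over the 9 CHH classes the quadruple mutant kept between 35.8% (CAT) and 43.9% (CCT) of the ddm1 rdr2 level in the arrays, and between 59.1% (CCC) and 87.3% (CAA) in the rest of the pericentromere. Among CHG sites it kept 36.1% at CAG, 36.4% at CTG and 40.2% at CCG in the arrays, and 98.1% to 98.4% in the rest of the pericentromere. CAG was 4.82% methylated in the quadruple mutant, 13.3% in ddm1 rdr2, 40.5% in ccr4a ccr4b and 39.7% in WT, and CTG differed from it by less than 1 point in each library. CCG, the CHG site with the lowest level in every library, was 4.02% methylated in the quadruple mutant, 10.005% in ddm1 rdr2, 35.7% in ccr4a ccr4b and 36.5% in WT. In the comparison of ccr4a ccr4b with WT the CHH classes kept between 76.2% (CAT) and 84.5% (CCC).

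Along the repeat unit CG methylation of WT was high throughout and that of ddm1 rdr2 was not. Over the 23 CG positions of the aligned unit it lay between 1.83% and 44.5% in the quadruple mutant, between 3.98% and 47.8% in ddm1 rdr2, between 58.6% and 86.7% in ccr4a ccr4b, and between 61.1% and 87.9% in WT. In the block, the CG sites at positions 27, 45, 55 and 65 had 7.34% to 9.48% methylation in ddm1 rdr2, while those at 94 and 105 had 33.8% and 34.5%. The block's other CG, at position 4, is not listed here. In the spacer the CG at position 205 had 3.98%, and those at 273 and 305 had 34.6% and 44.4%. The highest level, 47.8% at position 443, belongs to the chromosome 4 array alone, which is the only one with cytosines counted at that site. The uneven pattern was seen in each array: in ddm1 rdr2 position 94 had 28.8% in the chromosome 3 array, 37.3% in that of chromosome 4 and 33.6% in that of chromosome 5, and position 205 had 8.42%, 3.77% and 3.67%.

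The quadruple mutant was lower than ddm1 rdr2 at 21 of the 23 CG positions. At position 94 CG methylation was 16.3% in the quadruple mutant and 33.8% in ddm1 rdr2, and at position 105 it was 18.8% in the quadruple mutant and 34.5% in ddm1 rdr2. The exceptions were the adjoining CG sites at 305, with 44.5% in the quadruple mutant and 44.4% in ddm1 rdr2, and 315, with 30.7% in the quadruple mutant and 25.8% in ddm1 rdr2. At 315 all 3 arrays were higher in the quadruple mutant, with 29.5%, 62.0% and 21.4% in that library and 26.8%, 52.3% and 18.5% in ddm1 rdr2 on chromosomes 3, 4 and 5. Across the 23 positions, all read from the same libraries, the levels of the quadruple mutant and ddm1 rdr2 had a Pearson r of 0.923 and a Spearman rho of 0.946, those of ddm1 rdr2 and WT of 0.445 and 0.415, and those of ccr4a ccr4b and WT of 0.991 and 0.969. The pattern that ddm1 rdr2 showed along the unit was hence kept in the quadruple mutant at a lower level, apart from positions 305 and 315.

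**Figure D4:**
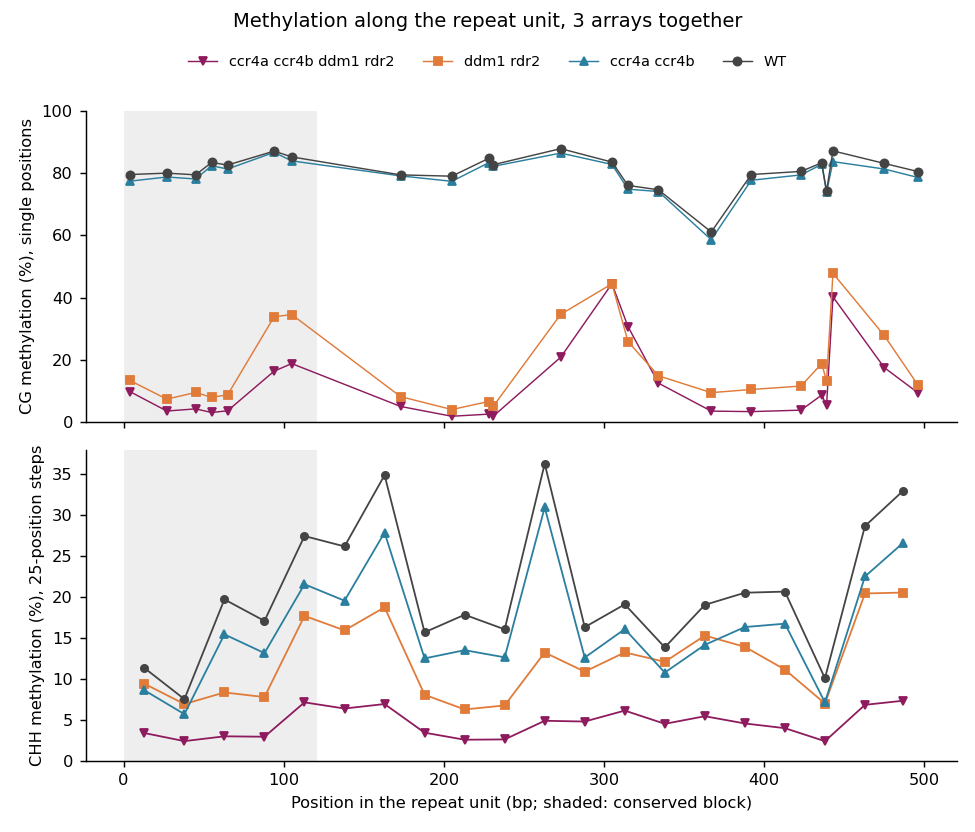
Methylation (%) along the aligned repeat unit over the 3 arrays together, by library: CG at each of the 23 CG positions (top) and CHH in steps of 25 positions (bottom), with the conserved block shaded. In the top panel the ddm1 rdr2 points reach 34.5% at position 105 and 44.4% at position 305, against 3.98% at position 205, and only at positions 305 and 315 is the quadruple mutant not below ddm1 rdr2.

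CHH methylation also varied along the unit. Over 20 steps of 25 positions the level ran between 2.39% and 7.33% in the quadruple mutant, between 6.26% and 20.5% in ddm1 rdr2, between 5.69% and 30.9% in ccr4a ccr4b and between 7.52% and 36.2% in WT. The highest step was at positions 476 to 498 in the quadruple mutant and in ddm1 rdr2, and at positions 251 to 275 in ccr4a ccr4b and in WT. CHH was lower in the quadruple mutant than in ddm1 rdr2 in all 20 steps, by -13.6 points at positions 451 to 475 and by -3.69 points at positions 201 to 225. It was lower in ccr4a ccr4b than in WT in all 20 steps as well. Positions 251 to 275, where WT was highest at 36.2%, had 13.2% in ddm1 rdr2, the largest difference of that comparison at -23.0 points. Positions 26 to 50, in the block, had 6.92% in ddm1 rdr2 and 7.52% in WT, a difference of -0.597 points.

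The block and the rest of the unit were set against each other, the block having been chosen for its likeness among the 3 arrays. CHH methylation of the block was 3.81% in the quadruple mutant, 10.1% in ddm1 rdr2, 14.1% in ccr4a ccr4b and 18.0% in WT. In the rest of the unit it was 4.44% in the quadruple mutant, 11.8% in ddm1 rdr2, 16.2% in ccr4a ccr4b and 20.6% in WT. The share of WT kept in ddm1 rdr2 was 56.0% in the block and 57.0% in the rest of the unit, and the quadruple mutant kept 37.8% of ddm1 rdr2 in both. CHG differed more over the 3 arrays together: the block kept 34.3% of WT in ddm1 rdr2 and the rest of the unit 24.7%. The quadruple mutant kept 35.6% and 43.3% of those levels. The arrays were not alike in this. In ddm1 rdr2 block and rest kept 36.1% and 27.5% of WT on chromosome 3, 28.0% and 27.2% on chromosome 4, and 35.3% and 23.9% on chromosome 5. The quadruple mutant kept 44.9% and 41.6% of ddm1 rdr2 on chromosome 3, 36.1% and 49.3% on chromosome 4, and 34.2% and 41.3% on chromosome 5. By strand, CHH in the block kept 69.0% of WT in ddm1 rdr2 on the strand shown above and 46.9% on the opposite strand, while the quadruple mutant kept 38.4% and 37.3% of ddm1 rdr2 on these strands.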

How the data were processed

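Enzymatic methyl-seq libraries of leaf DNA were analysed, 1 per genotype, each made from 100 ng of DNA with 13 PCR cycles per the labels. The deposited values are counts of methylated and unmethylated calls per cytosine. Bismark 0.22.3 is named in the submitters' processing notes; the reference ColCEN is known from the deposited files' names, and read placement and duplicate removal are not given in the sources used here. No cytosine had 1 or 2 calls, so covered cytosines start at 3 calls. Levels are the methylated share of all calls, over cytosines that reached 4 calls in each of the 4 libraries, with Wilson and Newcombe 95% intervals. Arrays are member windows at most 50 kb apart. The pericentromere is within 2 Mb of the satellite span, and flanks are its windows within 100 kb of an array with recurrence under 30%. Units were aligned with scores of 2, -2 and -4 for match, mismatch and gap, and a unit or window entered the counts with at least 10 or 100 cytosines of a context. Bins had at least 4 cytosines with at least 4 calls in both libraries. In simulated calls with counting error only, 200 bins were changed by 60 points in CG, 30 in CHG and 15 in CHH. Of these, 96.5% to 97.5% were called in CG, 78.5% to 81.0% in CHG and 73.0% to 78.5% in CHH. Among unchanged bins 0 were called. Real libraries vary in other ways too, so this gives no rate of false calls for them. The test of bins compares libraries, not genotypes. The text names every array, the called array bins with the largest difference per comparison, context and direction, the 2 windows nearest the limit on each side and all CHG and CHH trinucleotides. The members, lists and tests were chosen with earlier results of these data known. Alternatives were other call minimums, single-cytosine means, no deeply covered cytosines, 200 bp bins, a 70% limit and no GC correction. The mutated genes were not checked, since their positions on this build were not used here. Python 3.11.15, numpy 2.4.6, pandas 2.3.3, scipy 1.17.1 and matplotlib 3.10.9 were used.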

Additional observations from a re-analysis of the deposited data

Results flagged for a closer look

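In the chromosome 4 array the CHG effect of ccr4a ccr4b had opposite signs in the 2 backgrounds: -5.57 points in the quadruple mutant minus ddm1 rdr2, and 0.451 points in ccr4a ccr4b minus WT. The effects differed by -6.02 points (-6.51 to -5.53, counting error only). The positive value rests on 1 of the array's 4 windows: ccr4a ccr4b minus WT was 1.83 points in window 5 (0.807 to 2.85), and 0.0977, 0.2195 and -0.545 points in windows 2, 3 and 4, with intervals that include 0. Within window 5 it was -2.44 points in the 16 units like the repeat and 3.37 points in the rest of the window. With 1 library per genotype this difference was not tested. CHG methylation of that array was 4.12% in the quadruple mutant, 9.69% in ddm1 rdr2, 35.9% in ccr4a ccr4b and 35.4% in WT.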

How the results depend on the processing

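No difference in level changed sign under any alternative run, and minimums of 1 and 10 calls moved no level beyond its interval. Covered cytosines start at 3 calls and levels are weighted by calls, so these minimums could move them little. Other settings moved levels, and the cause was not tested. With cytosines weighted equally, ccr4a ccr4b minus WT was -1.57 points in CG and -0.665 in CHG, ddm1 rdr2 minus WT was -63.3 in CG and -8.11 in CHH, and the quadruple mutant minus ddm1 rdr2 was -5.58, -6.31 and -6.61 in CG, CHG and CHH. Without cytosines covered over 3 times the median these were -1.64 and -1.13, then -62.4, -26.0 (CHG) and -7.90, then -5.29, -5.93 and -6.89. Windows with at least 70% recurrence gave -0.843 and -0.0691, then -66.0 in CG and -8.35 in CHH, then -7.18, -7.96 and -7.82. Counts of called bins also moved. For ccr4a ccr4b minus WT, a minimum of 10 calls left 0 in CG and 0 in CHG, and 200 bp bins gave 0 in CG and 50 in CHH. For ddm1 rdr2 minus WT, 200 bp bins gave 589 in CG and 206 in CHH, and leaving out deeply covered cytosines gave 145 in CHG. For the quadruple mutant minus ddm1 rdr2, CHG had 0 with 10 calls and 1 with 200 bp bins, and CHH 105 with 200 bp bins. With 200 bp bins fewer bins are tested. Relative depth in the quadruple mutant, ddm1 rdr2, ccr4a ccr4b and WT was 3.66, 4.56, 7.63 and 6.13 without GC correction, and 3.36, 4.05, 6.27 and 5.26 in windows with at least 70% recurrence. No paired analysis was possible because each genotype has 1 library and the labels carry no shared replicate number.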
